A study of Mus musculus with 12 samples.

Results

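The matrix proteases and their inhibitors were taken as every gene of the 12 tables whose symbol is *Mmp*, *Timp*, *Adam*, *Adamts*, or *Adamtsl* followed by its family number. The rule gave 84 of 54532 genes, namely 23 *Mmp*, 4 *Timp*, 33 *Adam*, 19 *Adamts*, and 5 *Adamtsl* genes. The rule used symbols and no levels, although it was set with earlier results of these data known. RNA came from distal colon and urinary bladder of 9 male mice that carried floxed *Yap1* and *Wwtr1*, the genes of the transcriptional co-activators YAP and TAZ. Ctrl mice were Cre-negative, and Y/T KO mice carried the tamoxifen-inducible Cre of the Myh11-CreERT2 transgene, which is active in smooth muscle. The transgene sits on the Y chromosome, so only males were studied, and whole tissue with its mucosa was sequenced. Mice of both genotypes received tamoxifen, 1 mg per mouse and day in 5 injections, and tissue was frozen 7 days after the first injection at an age of 5 to 7 weeks. Each group held 3 libraries from separate mice. Mice 788 (Ctrl), 783, and 780 (both Y/T KO) gave both tissues. Values of a group are listed by mouse, in the order 788, 786, 787 for Ctrl colon, 759, 783, 780 for Y/T KO colon, 784, 785, 788 for Ctrl bladder, and 782, 783, 780 for Y/T KO bladder.

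Matrix metalloproteinases (MMPs) are zinc enzymes that cut collagens, gelatin, proteoglycans, and other proteins outside the cell. Most are secreted as inactive proenzymes, and some are anchored in the cell membrane. ADAM proteins are membrane-bound relatives, several of which shed growth factors and cytokines from the cell surface, and ADAMTS proteins are secreted enzymes that cut proteoglycans or process procollagens. ADAMTS-like proteins share the ancillary domains of ADAMTS proteins but lack the protease domain, and they bind fibrillin microfibrils in the matrix. Tissue inhibitors of metalloproteinases (TIMPs) block MMPs and, in part, ADAMs and ADAMTSs. In hollow organs, fibroblasts and smooth muscle cells make much of this set, and invading leukocytes add to it.

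Levels are TPM, each gene's share of the transcripts of a library corrected for length and scaled to a fixed total, so that levels of different genes can be compared. Aligned sequence came to between 2.80 and 3.94 gigabases per library. The floxed genes fell short of a call: *Yap1* was at 45.8 to 54.9 TPM in Ctrl colon and 41.3 to 47.0 in Y/T KO colon, and at 98.6 to 109.8 in Ctrl bladder against 69.4 to 72.1 in Y/T KO bladder, where the groups did not overlap (adjusted p = 0.0625 with limma, against 0.697 in the colon). *Wwtr1* was at 16.8 to 21.5 and 17.9 to 22.7 TPM in the colon and at 32.5 to 61.6 and 48.3 to 60.8 in the bladder, so its transcript level does not separate the genotypes. Whole-tissue levels include cells in which the Cre is not active, so they do not measure the deletion in smooth muscle. The paper reports less YAP and TAZ protein in Y/T KO colon, with staining reduced or lost in its muscle layers, by its general methods on later days than here. Urothelial markers summed to 4449 to 5925 TPM in the bladder and to 27.3 to 40.1 in the colon, and colon epithelial markers to 8574 to 10586 TPM in the colon and to 201.2 to 263.1 in the bladder. *Muc2*, the main mucin of goblet cells, was listed at 0.0288 to 0.917 TPM in the colon, so a value near 0 in these tables does not show that a gene is silent.

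Of the 84 members, 60 reached 0.5 TPM in at least 1 library, 36 reached 10 TPM, and 8 reached 100 TPM. The value was 0 in all 12 libraries for 15 members. These were *Mmp1a*, *Mmp1b*, and *Mmp21*, and 12 of the 21 ADAMs that are known mainly from testis or have no settled role in these tissues. Summed over the 84 members, the level was 894 to 1084 TPM in Ctrl colon and 2612 to 3070 TPM in Ctrl bladder, and every bladder library of either genotype lay above every colon library.

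*Timp2*, whose product inhibits MMPs and also takes part in the activation of proMMP-2, was the most abundant member in both control tissues, at 121, 145, and 107 TPM in Ctrl colon, compared with 587, 619, and 601 TPM in Ctrl bladder. *Timp3*, which encodes a matrix-bound inhibitor that also acts on ADAM17, stood at 96.8, 131.7, and 96.2 TPM in Ctrl colon, compared with 271, 310, and 225 TPM in Ctrl bladder. *Mmp14*, which encodes the membrane-type collagenase MT1-MMP, stood at 123, 117, and 114 TPM against 236, 263, and 331 TPM. These 3 genes, with *Mmp2* (gelatinase A, which MT1-MMP activates), were among the 5 highest members of both tissues. *Mmp2* was at 90.6, 81.0, and 85.2 TPM in Ctrl colon, compared with 287, 302, and 338 TPM in Ctrl bladder. The remaining place among the 5 went to *Adam15* in the colon (144.8, 94.0, and 115.1 TPM; 103, 123, and 106 TPM in the bladder) and to *Timp1* in the bladder. *Adam15*, which encodes a disintegrin with broad expression, had a log2 difference, colon minus bladder, of 0.34 ± 0.20 (SE) that did not pass the test (adjusted p = 0.198 with limma) and was 0.08 without rescaling of the libraries.

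**Figure D1:**
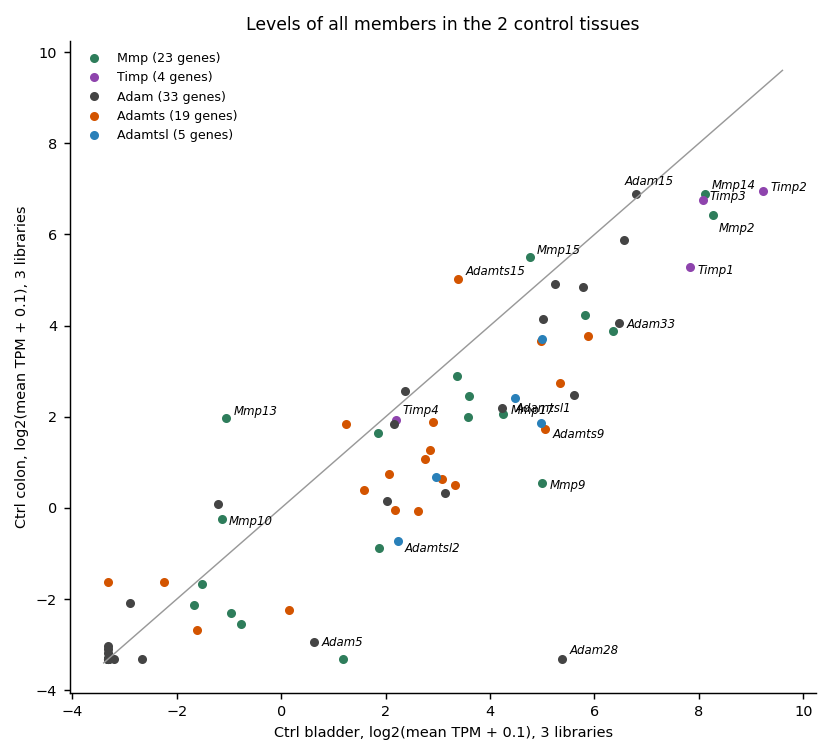
Mean level of each of the 84 members in Ctrl bladder (x axis) and Ctrl colon (y axis), as log2 of mean TPM plus 0.1 over 3 libraries each, colored by family, with the line of equal levels. Most members lie below the line. *Mmp13*, *Adamts15*, *Mmp15*, and *Mmp10* lie above it, and *Adam28* lies at the bottom because it was listed at 0 in the colon.

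Most members were lower in Ctrl colon than in Ctrl bladder, among them the gelatinases *Mmp2* and *Mmp9*, all 5 *Adamtsl* genes, and the inhibitors *Timp1*, *Timp2*, and *Timp3*. The collagenase *Mmp13*, *Adamts15*, and *Mmp15* were higher. In this comparison 53 members reached 0.5 TPM in 3 or more of the 6 libraries and were tested. In Ctrl colon 37 were lower at an adjusted p under 0.05, against 25.3% of the 18445 genes tested, and 4 were higher, against 25.4%. Of these, *Adam28*, *Adam5*, and *Adamts20* among the lower and *Mmp10* among the higher reached 0.5 TPM in libraries of 1 tissue only, so that the filter itself favored a difference, and 34 lower and 3 higher members remain without them. The median log2 difference, colon minus bladder, was -1.51 over the 53 members and 0.03 over all genes. Without the rescaling between libraries both medians moved down, to -1.77 and -0.23, and 40 members were lower and 3 higher. Markers of fibroblasts and of smooth muscle, which differ in amount between the organs, moved the same way, with 6 of 7 and 8 of 8 lower in the colon at an adjusted p under 0.05 and medians of -1.60 and -2.11. Markers of endothelium (4 of 4, median -1.21), adipocytes (4 of 4, -3.01), nerve and glia (4 of 5, -1.71), and macrophages (5 of 6, -1.08) were lower too at that threshold. Of 5 lymphocyte markers 1 was lower and 1 higher. The part of these cell types in the difference was not tested.

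*Mmp9*, gelatinase B, which is well known from neutrophils and macrophages, was at 1.81, 1.52, and 0.721 TPM in Ctrl colon, compared with 32.8, 38.9, and 24.2 TPM in Ctrl bladder. It was lower in the colon by a log2 of -4.27 ± 0.35 (SE; adjusted p = 7.83e-05). *Adamts9*, a proteoglycanase that cuts versican, differed by -3.10 ± 0.26 (adjusted p = 9.78e-05) and *Adamtsl1* by -2.93 ± 0.29 (adjusted p = 1.84e-04). *Adam5* was at 0.778 to 2.17 TPM in Ctrl bladder and at most 0.0884 TPM in Ctrl colon, and its log2 difference depends on the pseudocount, from -3.41 with 0.1 TPM to -1.13 with 1 TPM. *Adam28*, an ADAM known from lymphocytes and some epithelia, was listed at 0 in all 6 colon libraries and was at 34.7 to 49.1 TPM in all 6 bladder libraries. No fold can be given for it against values of 0.

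The 4 members called higher in Ctrl colon have different roles. *Mmp13*, a collagenase, was at 3.01, 4.63, and 3.82 TPM in Ctrl colon, compared with 0.103, 0.773, and 0.267 TPM in Ctrl bladder (log2 difference 3.48 ± 0.52, adjusted p = 0.00133, and 1.95 with a pseudocount of 1 TPM). *Adamts15*, a proteoglycanase, was at 44.3, 27.8, and 25.5 TPM against 11.2, 10.6, and 9.35 TPM (1.86 ± 0.24, adjusted p = 6.71e-04). *Mmp15*, the membrane-type MT2-MMP, was at 52.0, 38.7, and 44.5 TPM against 30.7, 22.9, and 27.5 TPM (1.00 ± 0.19, adjusted p = 0.00408). *Mmp10*, stromelysin-2, was at 0.562 to 1.02 TPM in Ctrl colon and 0.344 to 0.370 TPM in Ctrl bladder, under the filter in every bladder library. Its log2 difference was 1.07 ± 0.33 (adjusted p = 0.0312) and 0.44 with a pseudocount of 1 TPM. The call was lost without the rescaling (adjusted p = 0.0842), with all 12 libraries in a single fit (0.125), and without any 1 Ctrl bladder library (0.0838 to 0.104). All adjusted p-values here and below come from limma with Benjamini-Hochberg adjustment over all genes tested.

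*Timp1*, which encodes an inducible secreted inhibitor, was lower in Ctrl colon by a log2 of -2.27 ± 0.22 (adjusted p = 1.76e-04), *Timp2* by -2.02 ± 0.11 (adjusted p = 1.14e-05), and *Timp3* by -1.05 ± 0.16 (adjusted p = 0.00148). *Mmp2* differed by -1.59 ± 0.12 (adjusted p = 5.48e-05) and *Mmp14* by -0.95 ± 0.14 (adjusted p = 0.00109). Summed over the 23 *Mmp* genes the level was 299 to 329 TPM in Ctrl colon and 757 to 929 in Ctrl bladder. Summed over the 4 *Timp* genes it was 242 to 331 and 1001 to 1220 TPM. The ratio of *Mmp* to *Timp* transcripts was therefore 1.30, 0.939, and 1.24 in Ctrl colon and 0.695, 0.702, and 0.928 in Ctrl bladder. The highest bladder ratio, of mouse 788, lay just below the lowest colon ratio, of mouse 786, so the control tissues did not overlap. In Y/T KO mice the ratio was 1.26, 1.69, and 1.27 in the colon and 0.883, 0.814, and 0.798 in the bladder, and in each tissue the genotypes overlapped.

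**Figure D2:**
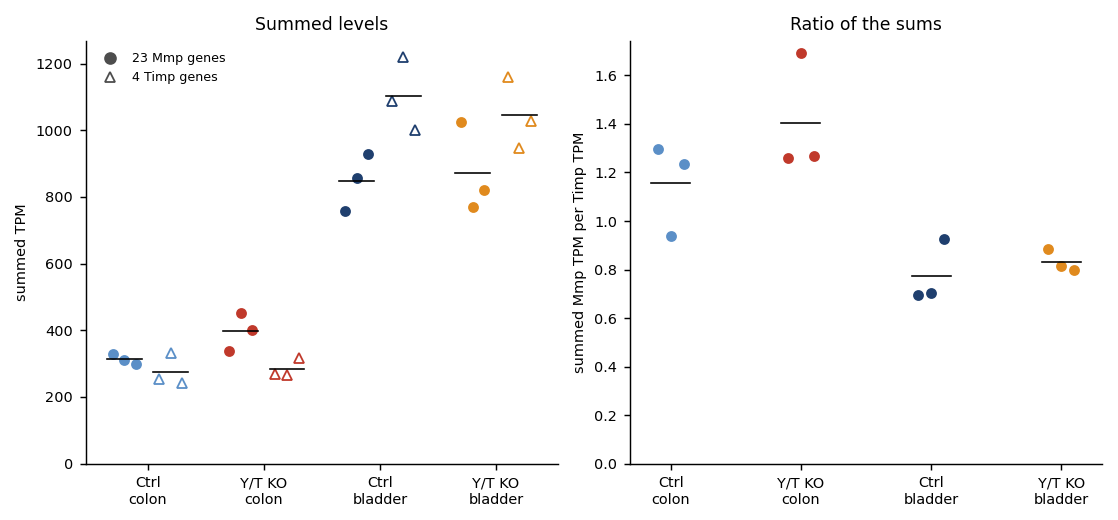
Left, summed TPM of the 23 *Mmp* genes (circles) and the 4 *Timp* genes (triangles) in each library, and right, the ratio of these sums, by group, with points for the 3 libraries of a group and a line at their mean. In all 6 bladder libraries the inhibitors summed to more than the metalloproteinases, and the ratio stayed between 0.695 and 0.928, against 0.939 to 1.69 in the colon.

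Which members changed after deletion of *Yap1* and *Wwtr1* was tested within each tissue. *Adam33* fell in the colon and *Mmp17* fell in the bladder, and no other member passed the test in either tissue. Over all genes, this test called 14 lower and 10 higher in the colon, and 40 lower and 15 higher in the bladder. The paper, which used DESeq2, reports more changed genes, with genes of the extracellular matrix enriched among those of the colon. A member that did not pass here is thus not shown to be unchanged. The stromelysin *Mmp3* lay above Ctrl in both tissues and *Adamtsl2* in the colon, without passing. In the colon 50 members were tested, of which 1 was lower in Y/T KO mice by the adjusted threshold of 0.05, against 0.08% of 17500 genes, and 0 were higher, against 0.0571%. At an unadjusted p under 0.05, 6 members were lower and 7 higher, against 4.59% and 5.14% of all genes. Levels of the genotypes did not overlap for 7 members that were lower, against 7.87% of all genes, and for 6 that were higher, against 8.24%. The median log2 fold change was 0.08 over the members and 0.01 over all genes. In TPM as deposited, the library of Y/T KO mouse 780 was the highest of the 6 colon libraries for 11 of the 50 members, and that of Ctrl mouse 786 for 19. The latter library had the largest size factor of the colon (1.11, against 0.968 to 1.01), which raises its deposited values. The same count over all genes was not made.

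In the bladder 53 members were tested, of which 1 was lower at an adjusted p under 0.05, against 0.219% of 18237 genes, and 0 were higher, against 0.0823%. At an unadjusted p under 0.05, 12 members were lower, against 8.2% of all genes, and 2 were higher, against 6.64%. The genotypes did not overlap for 10 members that were lower, against 11.4%, and for 5 that were higher, against 10.6%. The median log2 fold change was -0.08 over the members and 0.00 over all genes. In whole tissue, fewer cells of a type and less RNA per cell cannot be told apart. Smooth muscle markers were below Ctrl in both tissues, with 8 of 8 fold changes under 0 in each (medians of -0.43 and -0.87). At the adjusted threshold 0 of the 8 passed in either tissue. The genotypes did not overlap for 4 of them in the colon, against 7.87% of all genes, and for 6 in the bladder, against 11.4%. Their summed level was 7481 to 8227 TPM in Ctrl colon and 4913 to 5780 in Y/T KO colon, and 34907 to 45463 in Ctrl bladder and 16563 to 30437 in Y/T KO bladder. None of these markers was under 0.5 TPM in any group.

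**Figure D3:**
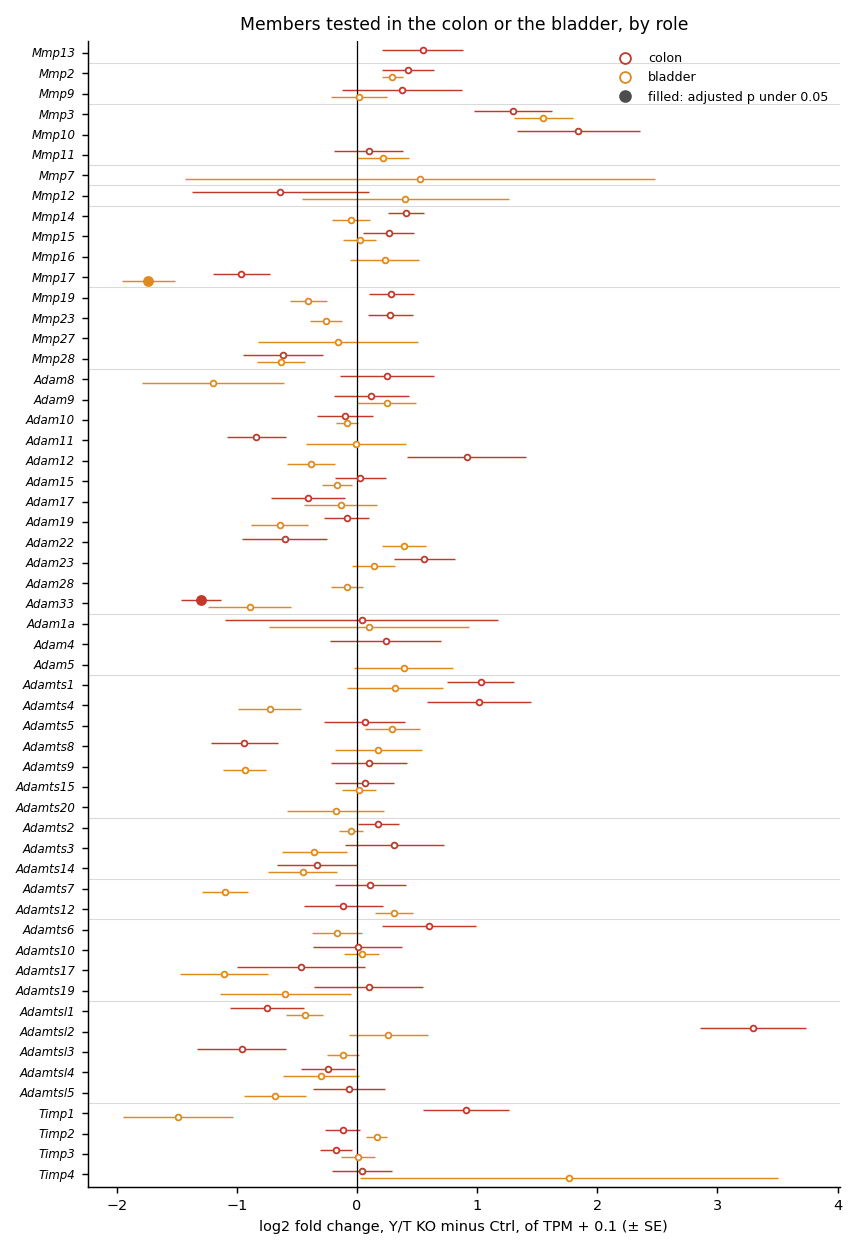
Log2 fold change of TPM plus 0.1 between Y/T KO and Ctrl (x axis, ± SE) for each member tested in the colon (red) or the bladder (orange), grouped by role from collagenases at the top to inhibitors at the bottom. Filled points have an adjusted p under 0.05: *Adam33* in the colon (-1.30) and *Mmp17* in the bladder (-1.74). *Adamtsl2* in the colon lies farthest from 0, at 3.29.

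The call in the colon was *Adam33*, a membrane-anchored ADAM known from mesenchymal cells and studied as an asthma susceptibility gene of airway smooth muscle and fibroblasts (ENSMUSG00000027318, GRCm38 chr2:131050591-131063814, minus strand). It had 17.3, 17.7, and 14.7 TPM in the Ctrl colon libraries, against 6.35, 6.15, and 7.03 TPM with the knockout. The groups lay far apart, with little spread within either. *Adam33* fell in the colon by a log2 of -1.30 ± 0.17 (SE, n = 3 and 3; adjusted p = 0.0462 with limma). In the bladder it took values of 67.3, 102.5, and 96.1 TPM without and 78.1, 28.1, and 47.1 TPM with the knockout, so 1 Y/T KO library, of mouse 782, lay within the Ctrl range (log2 fold change -0.89 ± 0.34, adjusted p = 0.309). The difference between the fold changes of the tissues was -0.41 ± 0.39 (adjusted p = 0.686). The call in the colon is close to its threshold: it was lost without the filter on low values (adjusted p = 0.0781), with TPM as deposited (0.0508), without the trend and robust options (0.0623), with all 12 libraries in a single fit (0.0830), and without any 1 of the 6 libraries (0.0673 to 0.167).

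The call in the bladder was *Mmp17*, which encodes MT4-MMP, a membrane-type MMP held by a glycosylphosphatidylinositol anchor and expressed by smooth muscle of vessels and gut (ENSMUSG00000029436, GRCm38 chr5:129584169-129611099, plus strand). It reached 13.7, 20.1, and 23.1 TPM in Ctrl bladder, compared with 6.72, 5.26, and 4.66 TPM after knockout. In the colon it took values of 4.61, 3.70, and 3.96 TPM without and 1.87, 2.21, and 1.90 TPM with the knockout. All 6 Y/T KO libraries were below the Ctrl libraries of the same tissue. *Mmp17* fell in the bladder by a log2 of -1.74 ± 0.22 (adjusted p = 0.0473), and its fold change in the colon was -0.96 ± 0.24 (adjusted p = 0.313), with a difference between tissues of 0.77 ± 0.31 (adjusted p = 0.337). This call, too, was near its threshold, and it was lost without the filter (adjusted p = 0.0585), with TPM as deposited (0.0653), without the trend and robust options (0.0753), and without any 1 library other than that of Ctrl mouse 784 (0.0590 to 0.208).

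Both genes were also set against the smooth muscle markers, whose sums were lower in the same libraries. Per 1000 TPM of these markers summed, *Adam33* measured 2.10, 2.37, and 1.83 TPM (Ctrl colon) and 1.22, 1.06, and 1.43 TPM (Y/T KO colon), without overlap. Its bladder values per 1000 were 1.93, 2.25, and 2.28 TPM (Ctrl) and 2.57, 1.39, and 2.85 TPM (Y/T KO), on both sides of the Ctrl range. *Mmp17* was at 0.561, 0.494, and 0.491 TPM per 1000 in Ctrl colon and at 0.361, 0.383, and 0.386 in Y/T KO colon, and at 0.393, 0.442, and 0.548 in Ctrl bladder and 0.221, 0.260, and 0.282 in Y/T KO bladder. Relative to the summed markers *Mmp17* was thus lower in every Y/T KO library of both tissues than in any Ctrl library of that tissue. In the colon both ratios depend on which markers are summed. The log2 fold changes of single markers there ran from -0.10 (*Cnn1*) to -0.88 (*Acta2*) and -0.98 (*Myh11*). Those of *Mmp17* and *Adam33* were -0.96 and -1.30. A fall beyond that of *Myh11* or *Acta2* was not tested. Markers of fibroblasts, the other main mesenchymal cells, were not below Ctrl as a list (median 0.17 in the colon and 0.15 in the bladder, 5 of 7 above 0 in each). The list was split in the bladder. There *Col1a1* (-0.75) and *Col3a1* (-0.24) were lower and *Dcn* (0.24) and *Dpt* (0.33) higher, at an unadjusted p under 0.05. With adjustment, 0 of the 7 passed in either tissue. The part of fibroblasts in the levels of *Adam33* and *Mmp17* was not tested.

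**Figure D4:**
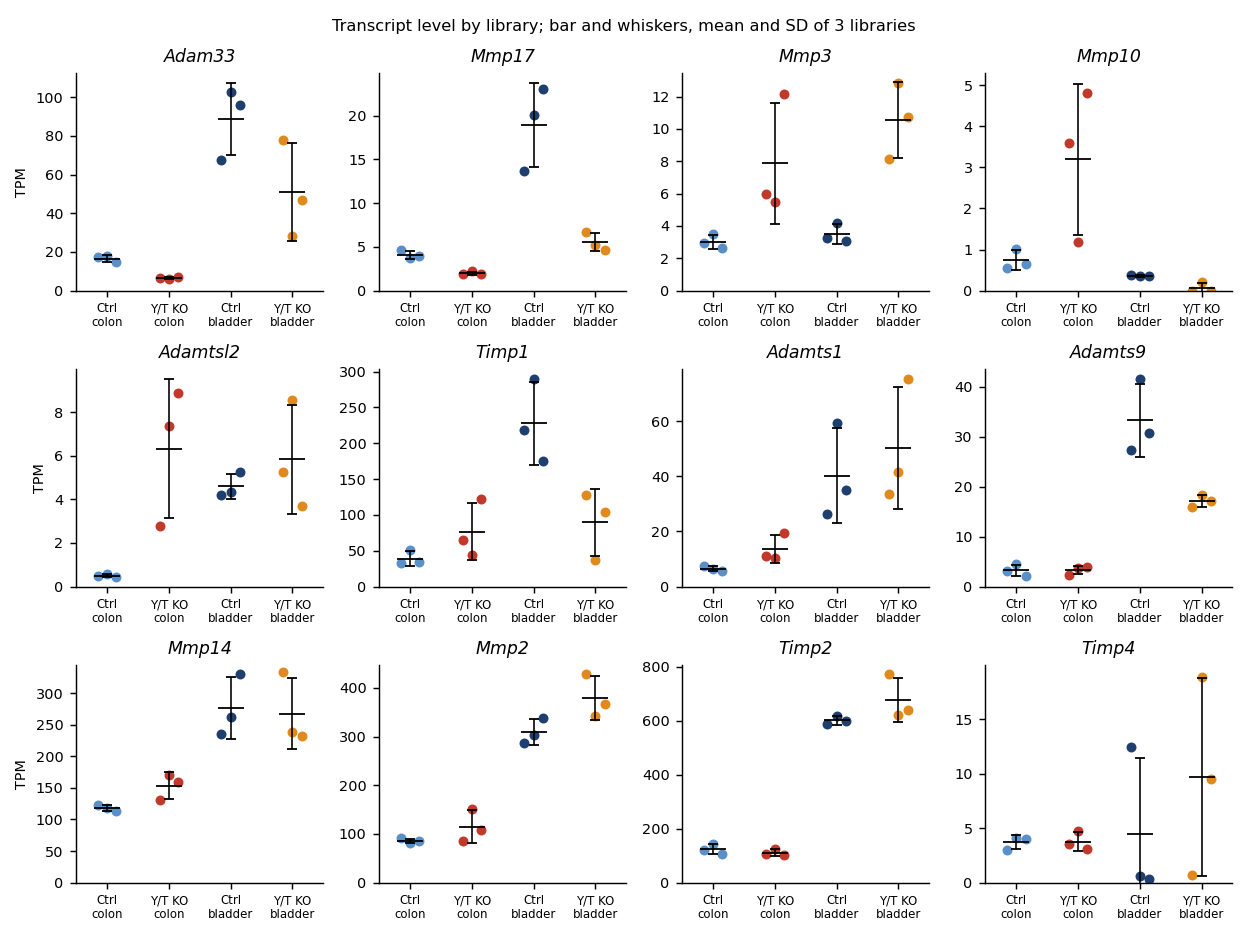
TPM (y axes, from 0) of 12 members in each of the 12 libraries, by group, with the mean and SD of the 3 libraries of a group. *Adam33* and *Mmp17* lie lower in Y/T KO colon than in Ctrl colon, *Mmp3* lies higher in Y/T KO of both tissues, and *Timp4* varies between 0.318 and 18.9 TPM within the bladder.

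Of the other membrane-type MMP genes, *Mmp14*, *Mmp15*, and *Mmp16* were tested in at least 1 tissue, and 0 of these 3 passed with limma. *Mmp14* was at 130, 171, and 160 TPM in colon of Y/T KO mice, above its 3 Ctrl libraries, with a log2 fold change of 0.41 ± 0.15 (adjusted p = 0.485). In the bladder its levels of 334, 238, and 232 TPM in Y/T KO overlapped with those of Ctrl.

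Among the stromelysins, which cut proteoglycans, fibronectin, and other MMPs, *Mmp3* was above Ctrl in both tissues. It had 2.96, 3.50, and 2.62 TPM in the Ctrl colon libraries, against 5.99, 5.46, and 12.1 TPM with the knockout, where mouse 780 was highest. In the bladder it took values of 3.29, 4.19, and 3.06 TPM without and 8.13, 12.8, and 10.7 TPM with the knockout. Neither tissue showed overlap between the genotypes, but no fold change passed the test: 1.30 ± 0.33 in the colon (adjusted p = 0.317) and 1.55 ± 0.25 in the bladder (adjusted p = 0.0838), with a difference between tissues of -0.25 ± 0.43 (adjusted p = 0.835). With all libraries kept, other settings gave an adjusted p of 0.0601 to 0.116 in the bladder. *Mmp10* reached 0.562, 1.02, and 0.638 TPM in Ctrl colon, compared with 3.60, 1.19, and 4.80 TPM after knockout (1.84 ± 0.51, adjusted p = 0.372, and 1.19 with a pseudocount of 1 TPM). In the bladder it stayed under 0.5 TPM in every library and was not tested. *Mmp11*, stromelysin-3, which shares little of the substrate range of the others, overlapped between genotypes in both tissues.

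*Mmp3* and *Mmp10* lie in a cluster of 10 *Mmp* genes on chromosome 9 (GRCm38 chr9:7272514-7699585). It also has the collagenase, elastase, and matrilysin genes, *Mmp20*, and *Mmp27*, but not the stromelysin gene *Mmp11*. For 3 of the 10 every value was under 0.5 TPM, and 2 of these, *Mmp1a* and *Mmp1b*, were 0 throughout. *Mmp7*, matrilysin, was listed at 0 in the 3 Ctrl colon libraries and at 0.697, 0.469, and 0.912 TPM in the Y/T KO colon libraries, too low for the test. In the bladder *Mmp7* took values of 6.49, 0, and 0 TPM without and 0, 0.757, and 2.20 TPM with the knockout, so the high value came from Ctrl mouse 784 alone. *Mmp13* was at 5.52, 3.44, and 8.28 TPM in colon of Y/T KO mice and overlapped with Ctrl. *Mmp12*, macrophage elastase, ranged from 1.02 to 10.4 TPM in the colon and from 2.03 to 25.3 TPM in the bladder, with its highest bladder value in Ctrl mouse 785, and overlapped in both tissues. *Mmp7* and *Mmp12* were named after their values were seen. The sum over the cluster, 9.03 to 20.0 TPM in Ctrl colon and 11.6 to 29.9 TPM in Y/T KO colon, overlapped between genotypes.

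**Figure D5:**
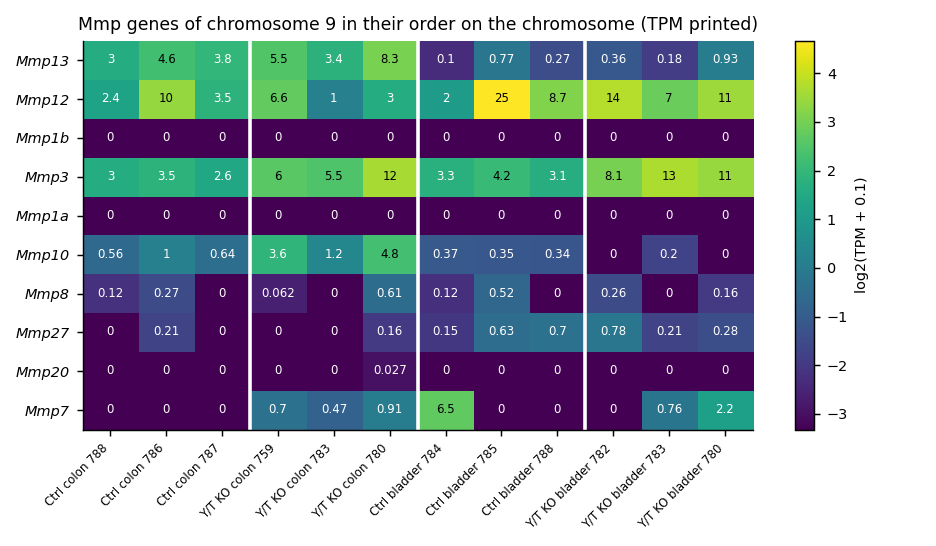
Levels of the 10 *Mmp* genes of the chromosome 9 cluster, in their order on the chromosome (rows), in each library (columns), colored by log2 of TPM plus 0.1 with the TPM printed in each cell. *Mmp3* is higher in Y/T KO libraries of both tissues and *Mmp10* in those of the colon, whereas *Mmp1a* and *Mmp1b* were 0 in all 12 libraries.

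The 250 bases before the start sites of *Mmp3* and *Mmp10* are shown because these neighbors differ in how they behave in the bladder. *Adamtsl2*, with the largest fold change in the colon, and *Timp1*, whose fold changes have opposite signs in the tissues, follow. The sequences are from RefSeq on GRCm38.p6, the regions being chr9:7445572-7445821, chr9:7502092-7502341, chr2:27079129-27079378, and chrX:20869916-20870165, all on the plus strand. Capitals mark matches, on either strand, to the AP-1 motif TGANTCA or the TEAD motif GGAATG, the sequence bound by the partners of YAP and TAZ.
Mmp3: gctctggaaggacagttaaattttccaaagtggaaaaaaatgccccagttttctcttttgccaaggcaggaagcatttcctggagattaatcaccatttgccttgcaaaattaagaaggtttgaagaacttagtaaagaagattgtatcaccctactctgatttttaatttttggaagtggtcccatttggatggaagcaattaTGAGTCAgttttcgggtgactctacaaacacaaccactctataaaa
Mmp10: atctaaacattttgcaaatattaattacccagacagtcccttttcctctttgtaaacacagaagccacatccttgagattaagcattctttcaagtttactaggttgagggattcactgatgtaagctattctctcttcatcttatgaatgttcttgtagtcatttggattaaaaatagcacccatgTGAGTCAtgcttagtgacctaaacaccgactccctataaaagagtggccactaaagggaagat
Adamtsl2: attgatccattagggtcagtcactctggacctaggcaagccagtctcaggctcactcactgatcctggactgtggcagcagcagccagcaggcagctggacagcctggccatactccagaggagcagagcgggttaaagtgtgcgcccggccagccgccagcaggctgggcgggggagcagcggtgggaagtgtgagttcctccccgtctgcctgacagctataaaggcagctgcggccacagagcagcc
Timp1: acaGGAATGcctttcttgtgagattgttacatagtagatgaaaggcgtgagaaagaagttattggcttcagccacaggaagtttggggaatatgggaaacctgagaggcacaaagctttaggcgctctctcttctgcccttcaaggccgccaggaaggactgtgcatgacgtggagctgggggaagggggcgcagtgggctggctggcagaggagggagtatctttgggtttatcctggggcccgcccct

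*Mmp3* and *Mmp10* each hold a single TGAGTCA, between 46 and 40 and between 63 and 57 bases before the start, although only *Mmp3* was detected at 0.5 TPM or more in the bladder. The table of promoters held 53 of the 84 members, with 58 start sites, and had no entry for *Adam33* and *Mmp17*. The AP-1 motif was found before 12 of these 58 start sites and before 6.75% of all 32851 start sites. Its 12 genes include 8 of the 10 genes of the chromosome 9 cluster. The TEAD motif was found before 3 of the 58, those of *Adam19*, *Adamts13*, and *Timp1*, and before 12.6% of all start sites, and a CArG box, to which SRF binds in smooth muscle genes, before 0 of the 58 and 1.47% of all. A match is a description of the letters and not of binding.

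*Adamtsl2* had the largest fold change of any member. Its product is a secreted glycoprotein of fibrillin microfibrils, and its loss causes geleophysic dysplasia in humans (ENSMUSG00000036040, GRCm38 chr2:27079379-27108981). It measured 0.474, 0.574, and 0.460 TPM (Ctrl colon) and 2.75, 7.35, and 8.88 TPM (Y/T KO colon), with the 3 Ctrl libraries close together and Y/T KO mouse 759 lowest in its group. The log2 fold change was 3.29 ± 0.44 and just missed the threshold (adjusted p = 0.0557). *Adamtsl2* was called with all 12 libraries in a single fit (adjusted p = 0.00798) and without Y/T KO mouse 759 (0.00428), and the other settings gave adjusted p-values of 0.0508 to 0.203. With a pseudocount of 1 TPM in place of 0.1 its fold change was 2.19. In the bladder it took values of 4.19, 4.33, and 5.25 TPM without and 5.24, 8.56, and 3.70 TPM with the knockout, with overlap. The difference between the fold changes of the tissues was 3.03 ± 0.58 (adjusted p = 0.138), and 3.54 without Y/T KO mouse 759, with an adjusted p of 0.0120. The other 4 *Adamtsl* genes had fold changes below 0 in both tissues, with 2 in each tissue at an unadjusted p under 0.05, against 4.59% of all genes in the colon and 8.2% in the bladder. *Adamtsl3* had 1.20, 2.33, and 0.955 TPM in the Ctrl colon libraries, against 0.698, 0.688, and 0.572 TPM with the knockout (-0.96 ± 0.37, adjusted p = 0.488, and -0.53 with a pseudocount of 1 TPM).

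*Timp1* had the largest fold change of the inhibitors in the colon, and in the bladder its groups did not overlap. It reached 32.8, 50.6, and 33.8 TPM in Ctrl colon, compared with 64.3, 44.2, and 121.7 TPM after knockout, where mouse 780 was highest and mouse 783 within the Ctrl range. In the bladder it took values of 218, 290, and 175 TPM without and 128, 37.5, and 103.8 TPM with the knockout, all 3 below Ctrl. Neither fold change passed the test, at 0.91 ± 0.36 in the colon (adjusted p = 0.492) and -1.49 ± 0.46 in the bladder (adjusted p = 0.236), nor did their difference of 2.40 ± 0.65 (adjusted p = 0.226). Neutrophil markers were also below Ctrl in the bladder, 4 of the 4 tested with a median of -1.10 and sums of 56.7 to 188.5 TPM in Ctrl and 23.6 to 90.8 TPM in Y/T KO, with *Ly6g* and *Ngp* under 0.5 TPM in both groups. In the colon 2 of the 4 neutrophil markers tested were below 0 (median -0.47), with sums of 135.7 to 195.4 TPM in Ctrl and 113.1 to 333.3 TPM in Y/T KO. These colon sums largely reflect *Ly6g*, at 127.6 to 147.9 TPM in Ctrl and 112.1 to 201.4 TPM in Y/T KO. In Y/T KO colon 783, whose sum was 113.1 TPM, *S100a8*, *S100a9*, and *Cxcr2* were 0. Between the control tissues *Ly6g* was higher in the colon, whereas *Csf3r* and *Cxcr2* were lower there (log2 of 9.53, -2.26, and -2.06). Macrophage markers were above Ctrl in the colon, 6 of 6 with a median of 0.27 and sums of 369 to 494 and 470 to 720 TPM, and 5 of 6 were below 0 in the bladder, with a median of -0.33 and sums of 798 to 1111 and 686 to 995 TPM. Their part in the levels of *Timp1* was not tested.

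*Timp2* and *Timp3* had fold changes close to 0. *Timp2* was at 106, 126, and 101 TPM in colon of Y/T KO mice (-0.12 ± 0.14, adjusted p = 0.793) and at 773, 620, and 639 TPM in bladder of Y/T KO mice (0.16 ± 0.09, adjusted p = 0.431). It shares bases with *Cep295nl* on the same strand in the GENCODE M21 annotation, and reads of these bases could be counted for either gene. *Timp3* was at 95.4, 92.0, and 89.6 TPM in colon of Y/T KO mice, just below its Ctrl libraries (-0.18 ± 0.13, adjusted p = 0.687), and at 259, 271, and 275 TPM in bladder of Y/T KO mice (0.01 ± 0.14, adjusted p = 0.983). *Timp4*, an inhibitor known from heart and fat, was steady in the colon, at 3.02 to 4.69 TPM. Its bladder levels were 12.5, 0.596, and 0.318 TPM without and 0.688, 18.9, and 9.55 TPM with the knockout (1.76 ± 1.74, adjusted p = 0.677), so 3 libraries were high and 3 low across the genotypes. The adipocyte gene *Adipoq* was at 212, 94.8, and 46.9 TPM in the same Ctrl libraries and at 154, 276, and 203 TPM in the Y/T KO libraries. The 3 libraries with *Timp4* above 9 TPM, a cut set after the values were seen, are thus the 3 with the highest *Adipoq*. In the colon *Adipoq* was at 4.45 to 23.4 TPM, below every bladder library, although *Timp4* there lay above the 3 low bladder libraries. The part of fat tissue in *Timp4* was not tested.

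Of the ADAMTS enzymes that cut proteoglycans, 6 could be tested in colon and 7 in bladder. *Adamts1*, which cuts versican and aggrecan, measured 7.57, 6.47, and 5.60 TPM (Ctrl colon) and 11.1, 10.3, and 19.4 TPM (Y/T KO colon), without overlap (1.03 ± 0.28, adjusted p = 0.364). In the bladder its range of 26.1 to 59.3 TPM in Ctrl overlapped with 33.7 to 75.3 TPM in Y/T KO. *Adamts8* had 2.81, 3.28, and 4.30 TPM in the Ctrl colon libraries, against 1.90, 1.84, and 1.37 TPM with the knockout (-0.94 ± 0.28, adjusted p = 0.400). *Adamts9* overlapped between genotypes in the colon, at 2.12 to 4.43 TPM in Ctrl and 2.34 to 3.88 TPM in Y/T KO. In the bladder *Adamts9* took values of 27.4, 41.5, and 30.8 TPM without and 15.8, 18.3, and 17.1 TPM with the knockout, all below Ctrl (-0.94 ± 0.18, adjusted p = 0.115).

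*Adamts7* and *Adamts12*, whose products cut cartilage oligomeric matrix protein, had fold changes of opposite sign in the bladder. *Adamts7* reached 5.94, 8.61, and 6.75 TPM in Ctrl bladder, compared with 3.35, 2.94, and 3.39 TPM after knockout (-1.10 ± 0.19, adjusted p = 0.102). *Adamts12* was at 6.83, 6.001, and 7.04 TPM and at 7.90, 9.06, and 7.73 TPM (0.31 ± 0.16, adjusted p = 0.409). In the colon both overlapped between genotypes. The procollagen N-propeptidases *Adamts2*, *Adamts3*, and *Adamts14*, which trim fibrillar procollagens, had 0 members at an unadjusted p under 0.05 in either tissue, and *Adamts2*, the most abundant, was at 11.6 to 16.3 TPM in the colon and at 50.4 to 62.5 TPM in the bladder.

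Gelatinase A, *Mmp2*, was at 85.9, 151.4, and 107.1 TPM in colon of Y/T KO mice and overlapped with Ctrl. In Y/T KO bladder it was at 429, 343, and 366 TPM, above the 3 Ctrl libraries (0.29 ± 0.09, adjusted p = 0.223). *Mmp28*, epilysin, measured 9.07, 13.1, and 13.5 TPM (Ctrl bladder) and 7.87, 6.10, and 8.85 TPM (Y/T KO bladder) (-0.63 ± 0.20, adjusted p = 0.237).

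Among the 12 ADAMs with known roles outside the testis, *Adam33* was the only call in either tissue. *Adam11*, which like *Adam22* lacks the catalytic zinc motif and is known from neurons, had 3.24, 4.34, and 2.93 TPM in the Ctrl colon libraries, against 1.63, 1.74, and 2.20 TPM with the knockout (-0.84 ± 0.25, adjusted p = 0.402). *Adam22* reached 4.40, 3.35, and 4.19 TPM in Ctrl bladder, compared with 5.79, 4.72, and 5.21 TPM after knockout (0.39 ± 0.18, adjusted p = 0.376). The sheddases *Adam10* and *Adam17*, which release Notch and EGF receptor ligands among others, overlapped between genotypes in both tissues, at 41.1 to 85.5 and 12.8 to 38.8 TPM in the colon and at 85.4 to 106.7 and 24.1 to 48.1 TPM in the bladder.

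Whether the knockout effect differed between the tissues was tested for the 47 members that passed the filter in both. The count at an adjusted p under 0.05 was 0 with limma, against 0.0491% of 16298 genes, and 12 members had an unadjusted p under 0.05, against 12.6% of all genes. A fit with mice as blocks gave 0 as well. No member was thus shown to respond in only a single tissue.

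Of 37 genes that process, activate, inhibit, or are cut by these proteases, 30 were tested in each tissue, and 0 passed the adjusted threshold with limma in either. At an unadjusted p under 0.05, 1 was lower and 5 were higher in the colon, and 5 were lower and 1 was higher in the bladder. Of all genes tested, 4.59% were lower and 5.14% higher at that level in the colon, and 8.2% and 6.64% in the bladder. *Pcolce*, which encodes an enhancer of procollagen C-proteinase, measured 313, 218, and 277 TPM (Ctrl bladder) and 125, 108, and 81.4 TPM (Y/T KO bladder), without overlap (-1.37 ± 0.20, adjusted p = 0.0651). Its relative *Pcolce2* went the other way, from 11.0, 10.6, and 9.32 TPM to 16.9, 16.9, and 14.6 TPM (0.64 ± 0.14, adjusted p = 0.147). *Furin*, the convertase that activates membrane-type MMPs and ADAMs, had 46.7, 50.5, and 47.2 TPM in the Ctrl bladder libraries, against 40.1, 30.2, and 32.8 TPM with the knockout (-0.49 ± 0.11, adjusted p = 0.148), and the ADAMTS substrate *Vcan* was at 38.6, 40.1, and 56.6 TPM and at 28.0, 33.4, and 22.3 TPM (-0.69 ± 0.20, adjusted p = 0.218). *Mep1a*, a meprin subunit of the colon brush border, reached 197, 232, and 205 TPM in Ctrl colon, compared with 133, 152, and 72.5 TPM after knockout (-0.85 ± 0.26, adjusted p = 0.405). *Reck*, a membrane-anchored inhibitor of MMPs, was not called in either tissue, at 5.13 to 6.48 TPM (Ctrl) and 3.17 to 5.17 TPM (Y/T KO) in the colon and at 18.0 to 18.7 and 18.4 to 19.8 TPM in the bladder.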

How the data were processed

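Polyadenylated RNA of 12 libraries from distal colon and urinary bladder was sequenced from stranded libraries, with 3 libraries per genotype and tissue. The authors aligned the reads to GRCm38 with HISAT2 and estimated expression with StringTie, whose versions are not given in the sources used here. The authors deposited for each gene the TPM (length-corrected share of the library, scaled to a fixed total), the FPKM (fragments per kilobase, scaled by library size), and the coverage (mean reads per base, a signal). The read counts behind the authors' DESeq2 test were not used here, so limma was applied to TPM. TPM carries no counts, so the counting error of a value is unknown, and aligned bases per library came from the ratio of coverage to FPKM. Rows with the same gene ID were summed.

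Libraries were rescaled with size factors (median of ratios, 0.966 to 1.11) per tissue, and across the 6 Ctrl libraries for the comparison of tissues. Genes that reached 0.5 TPM in 3 or more of 6 libraries entered limma 3.58.1 in R 4.3.3 (log2 of rescaled TPM plus 0.1, group means, eBayes with trend and robust), two-sided, with Benjamini-Hochberg adjustment over all genes and a threshold of 0.05. Fold changes on this scale understate the change of low genes. Levels in the text are TPM as deposited, and overlap between groups was judged on rescaled TPM. The difference of effects between tissues was the interaction in a fit of all 12 libraries. Mouse numbers in the labels pair colon and bladder of 3 mice. Deviations of same-mouse libraries from their group means correlated at -0.02, 0.09, and 0.06 over genes. The procedure was tested on simulated data.

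The members and lists were chosen with earlier results of these data known. Named in the text are the *Timp* genes, called members, the 5 members with the smallest p in each direction and tissue, the 5 highest in each control tissue, and the 5 called members with the largest difference between control tissues in each direction. Other names illustrate roles or levels, and the promoters shown were picked after values were seen. Motifs were searched in 250 bases before RefSeq start sites (GRCm38.p6). Alternatives were a pseudocount of 0.5 or 1 TPM, no filter or a mean of at least 1 TPM, TPM as deposited, FPKM, no trend and robust options, all 12 libraries in one fit, the mouse as a block, and each library left out. Plots were drawn in matplotlib 3.10.9 from tables written by pandas 2.3.3 (Python 3.11.15).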

Additional observations from a re-analysis of the deposited data

How the results depend on the processing

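The calls for genotype rest on single genes near the threshold. In the colon the count of called members, 1, was 0 without the filter on low values, with TPM as deposited, and without the trend and robust options, and ran from 0 to 1 with each library left out. It stayed at 1 with all 12 libraries in one fit, but the gene was then *Adamtsl2* and not *Adam33*. In the bladder the count, 1, was 0 in the same 3 settings and 0 to 1 with each library left out. The count for the difference between tissues, 0, ran from 0 to 1 with each library left out, the exception being *Adamtsl2* without Y/T KO mouse 759, and with the mouse as a replicate block it was 0, so the pairing changed no call. For the control tissues the mouse block could not be fitted, since a single mouse is shared. There the count of 41 ran from 38 to 43 with all libraries kept and from 33 to 43 with each left out. Of 845 recomputed fold changes of 39 named genes, 812 kept their direction and their side of the threshold, 23 lost a call, 5 gained a call, and 5 changed sign. The sign changes all came from leaving out a library: *Timp4* in the colon ran from -0.12 to 0.17 and *Timp3* in the bladder from -0.14 to 0.12. The cause was not tested. With 3 libraries per group, an exact permutation test over libraries cannot give a p under 0.1.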

Other observations

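*Adam1a* took 2 levels that follow neither genotype nor tissue. It was at 14.4 TPM in Ctrl colon 788, 11.7 in Y/T KO colon 783, 10.4 in Ctrl bladder 785, and 11.7 in Y/T KO bladder 780, and between 1.40 and 3.24 TPM in the other 8 libraries. Mice 788, 783, and 780 were sequenced in both tissues, and in each of them only 1 of the 2 tissues was high. *Adam1a* shares bases with *Mapkapk5*, *Gm42878*, and the pseudogene *Gm15547* on the same strand in the GENCODE M21 annotation. Of these, only the levels of *Mapkapk5* were looked at. *Mapkapk5* was at 56.1, 57.9, 30.4, and 37.0 TPM in these 4 libraries and at 21.6 to 54.9 TPM in the others. Reads of the shared bases could be counted for any of these genes.

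In TPM as deposited, Ctrl bladder 785 was the highest of the 6 bladder libraries for 19 of 53 members tested, and the same count over all genes was not made. This library held the highest *Adam8* (33.9 TPM, against 3.54 to 13.6 in the other 5), *Mmp12* (25.3, against 2.03 to 13.7), and *Timp1* (290, against 37.5 to 218), and, outside the members, the highest *Plaur* (53.6, against 9.55 to 26.3) and *Thbs1* (202, against 45.1 to 79.4). These genes were chosen after their values were seen.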
